A study of Mus musculus with 6 samples.

Results

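The genes described are the carriers that move amino acids, sugars and monocarboxylates across membranes, 85 of the 23337 genes of the count table. They are all rows whose symbol belongs to the solute carrier families SLC1, SLC2, SLC3, SLC6, SLC7, SLC16, SLC36, SLC38 or SLC43. Rows were selected by name and not by expression, though the families were chosen with earlier results of these data known. RNA came from mouse hematopoietic stem and progenitor cells (HSPCs) transformed by the MLL-AF9 oncogene, a gene fusion found in acute leukemia that both groups carry. Of the 6 libraries, 3 came from cells in pro-lymphoid culture (replicates 1, 5 and 6) and 3 from cells in pro-myeloid culture (replicates 2, 3 and 4). The labels give no strain, age, medium or culture time. They also leave unsaid whether each library is a culture or animal of its own, and all p-values therefore refer to library-to-library spread, part of which may be technical. The comparison addresses how transcription differs between cells with 1 oncogene in either lineage condition.

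Carriers of these families set which nutrients a cell can take up or release, and many have a preferred substrate, direction and membrane. SLC2 proteins let glucose and related sugars pass down their gradient. Light chains of SLC7 reach the cell surface bound to the heavy chain encoded by Slc3a2, and members of SLC16 carry lactate and pyruvate together with protons, mostly with a partner protein such as basigin or embigin. Dividing leukemia cells depend on such uptake, and glutamine, leucine, arginine and cystine carriers are studied in them as nutrient entry points.

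Start-site sequences are shown for 6 members with an entry in the RefSeq promoter table (GRCm38.p6, the assembly of mm10) whose start lies at or near that of the counted gene. Those of Slc16a3 and Slc6a12 lie 583 and 3309 bases from it and are not shown. Of the 85 members 60 had an entry, and of the 45 members that could be tested 32 had one. Each window runs from 250 bases before to 50 bases after an annotated start, 5′ to 3′ on the gene's strand. Capitals mark matches on either strand to TGATGNAA, a response element of C/EBP and ATF factors, to CACGTG, an E-box, to TTGCNNAA, a C/EBP motif, or to GAGGAAGT, a PU.1 core, and marked matches may overlap. The first pair are light chain genes that were lower in pro-lymphoid cells, and they lie on the same chromosome.
Slc7a8 (chr14:54781837-54782136, minus strand): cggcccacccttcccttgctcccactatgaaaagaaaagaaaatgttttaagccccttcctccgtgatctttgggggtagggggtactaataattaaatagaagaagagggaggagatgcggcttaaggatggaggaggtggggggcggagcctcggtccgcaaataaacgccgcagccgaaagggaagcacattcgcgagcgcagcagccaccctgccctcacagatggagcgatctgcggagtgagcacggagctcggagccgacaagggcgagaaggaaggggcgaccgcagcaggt
Slc7a7 (chr14:54417653-54417952, minus strand): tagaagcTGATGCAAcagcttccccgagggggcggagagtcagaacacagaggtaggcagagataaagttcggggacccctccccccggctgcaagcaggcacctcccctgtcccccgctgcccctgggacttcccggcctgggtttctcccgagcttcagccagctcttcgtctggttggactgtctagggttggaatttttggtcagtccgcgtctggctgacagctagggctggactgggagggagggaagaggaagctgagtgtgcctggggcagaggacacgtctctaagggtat
A sugar carrier gene that was lower and a carrier gene of GABA and taurine that was higher in pro-lymphoid cells come next.
Slc2a1 (chr4:119108495-119108794, plus strand): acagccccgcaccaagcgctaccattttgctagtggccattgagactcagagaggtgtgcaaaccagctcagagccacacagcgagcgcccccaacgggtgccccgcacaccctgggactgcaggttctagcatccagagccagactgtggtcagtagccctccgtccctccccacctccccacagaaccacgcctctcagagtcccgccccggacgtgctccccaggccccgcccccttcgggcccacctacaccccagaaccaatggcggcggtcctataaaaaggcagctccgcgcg
Slc6a13 (chr6:121300038-121300337, plus strand): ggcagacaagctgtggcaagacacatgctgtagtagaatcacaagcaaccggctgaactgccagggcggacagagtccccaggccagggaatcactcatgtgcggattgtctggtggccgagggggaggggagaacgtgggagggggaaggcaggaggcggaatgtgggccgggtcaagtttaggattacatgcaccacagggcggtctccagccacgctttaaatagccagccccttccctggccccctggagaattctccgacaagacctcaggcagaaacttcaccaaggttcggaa
The last pair are amino acid carrier genes that were not called between the cultures, shown because both hold TGATGNAA and Slc1a4 varied between the libraries of each group.
Slc1a4 (chr11:20332664-20332963, minus strand): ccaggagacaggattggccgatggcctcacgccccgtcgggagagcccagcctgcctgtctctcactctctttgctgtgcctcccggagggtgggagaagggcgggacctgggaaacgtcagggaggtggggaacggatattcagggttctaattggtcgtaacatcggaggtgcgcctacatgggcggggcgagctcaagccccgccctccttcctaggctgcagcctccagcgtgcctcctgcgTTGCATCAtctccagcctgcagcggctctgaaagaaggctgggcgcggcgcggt
Slc7a11 (chr3:50443564-50443863, minus strand): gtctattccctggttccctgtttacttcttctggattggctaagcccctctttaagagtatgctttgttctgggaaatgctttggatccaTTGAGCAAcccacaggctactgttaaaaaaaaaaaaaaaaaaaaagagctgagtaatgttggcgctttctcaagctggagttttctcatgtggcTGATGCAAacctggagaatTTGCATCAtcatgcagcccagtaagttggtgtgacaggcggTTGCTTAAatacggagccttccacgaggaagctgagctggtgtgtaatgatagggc
TGATGNAA was found in 3 of the 32 windows of tested members (9.38%), those of Slc7a7, Slc1a4 and Slc7a11, against 3.97% of all 32851 windows. CACGTG was found in 5 of 32 (15.6%, against 7.15%), TTGCNNAA in 3 (9.38%, against 10.8%) and GAGGAAGT in 1 (3.12%, against 3.20%). The 32 windows include some whose start lies far from that of the counted gene, such as Slc2a9 (18767 bases) and Slc3a2 (9472 bases). The GAGGAAGT match and 1 of the CACGTG matches lie in the window of Slc43a1, whose start is 915 bases away. A match is a description of the letters in the window, and no match says only that they are not there.

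The libraries held 34972488 to 46724382 counts, so that 3 counts correspond to 0.0650 to 0.0888 CPM (counts relative to the library total, with totals adjusted by TMM, the trimmed mean of M-values). Ptprc, the pan-leukocyte marker CD45, stood at 296 ± 24.2 CPM in pro-lymphoid and 386 ± 41.7 CPM in pro-myeloid cells (SD, n = 3), and Kit, Hoxa9 and Meis1 were present in all libraries. Of 6 hematopoietic progenitor markers (Ptprc, Kit, Cd34, Hoxa9, Meis1 and Spi1) 2 were higher and 3 lower in pro-lymphoid cells. Their log2 fold changes ran from -1.44 to 1.74, and they summed to 979 to 1240 against 1204 to 1350 CPM. Of 8 neutrophil markers 6 could be tested, and all 6 were lower in pro-lymphoid cells. The list summed to 70.2 to 197 CPM there against 3524 to 7565 CPM in pro-myeloid cells. Of 7 macrophage markers 5 could be tested and 2 were lower. The 7 markers summed to 269.7 to 606 against 342 to 702 CPM, with C1qa at 0 in pro-myeloid cells. Mast cell and basophil markers summed to 12.4 to 33.4 against 48.3 to 156 CPM, with Fcer1a and Tpsb2 at 0 in all libraries. Of 8 stromal markers 2 could be tested and 1 was lower, with log2 fold changes of -4.26 and 0.12. The list summed to 1.90 to 19.4 against 5.54 to 17.2 CPM, with Pdgfrb at a mean of 10.2 against 9.35 CPM. Pdgfra and Cxcl12 were at 0 in pro-lymphoid cells only, and Col1a2, Col3a1, Dcn and Lum were at 0 in all libraries. The marker lists of T and NK cells, of erythroid cells and of megakaryocytes each summed to at most 5.77 CPM in any library. In bulk RNA, fewer cells of a type and less RNA per cell cannot be told apart, and the part of the neutrophil-marker difference in the results below was not tested.

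Large differences were seen in a few carriers: Slc2a3, Slc16a7, Slc6a12 and Slc6a13 were higher and Slc16a3, Slc7a8, Slc7a7, Slc7a4 and Slc36a2 lower in pro-lymphoid cells, each by at least 4-fold. Of 45 members tested, 7 rose and 8 fell in pro-lymphoid cells at an adjusted p under 0.05 (quasi-likelihood test of edgeR, adjusted by Benjamini-Hochberg over all 12477 genes tested), which is 33.3% of them. Among all genes tested 37.4% were called, 16.8% as higher and 20.6% as lower, so the share among the carriers was near the background. The groups did not overlap for 18 of the 45 members (40%), against 53.5% of all genes tested. Among the 147 tested genes of other Slc families 24 rose and 39 fell (42.9%). The median log2 fold change of the members was 0.00336, against -0.000195 over all genes tested. The median size of the change regardless of direction was 0.51 on the log2 scale, against 0.45 over all genes tested, and 32 of the 45 members had an absolute log2 fold change under 1. Without pro-lymphoid replicate 6, 4 members rose and 7 fell. Calls over all genes also became fewer in that setting, at 1158 higher and 1735 lower of 12744 tested, against 2091 and 2574 of 12477.

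**Figure D1:**
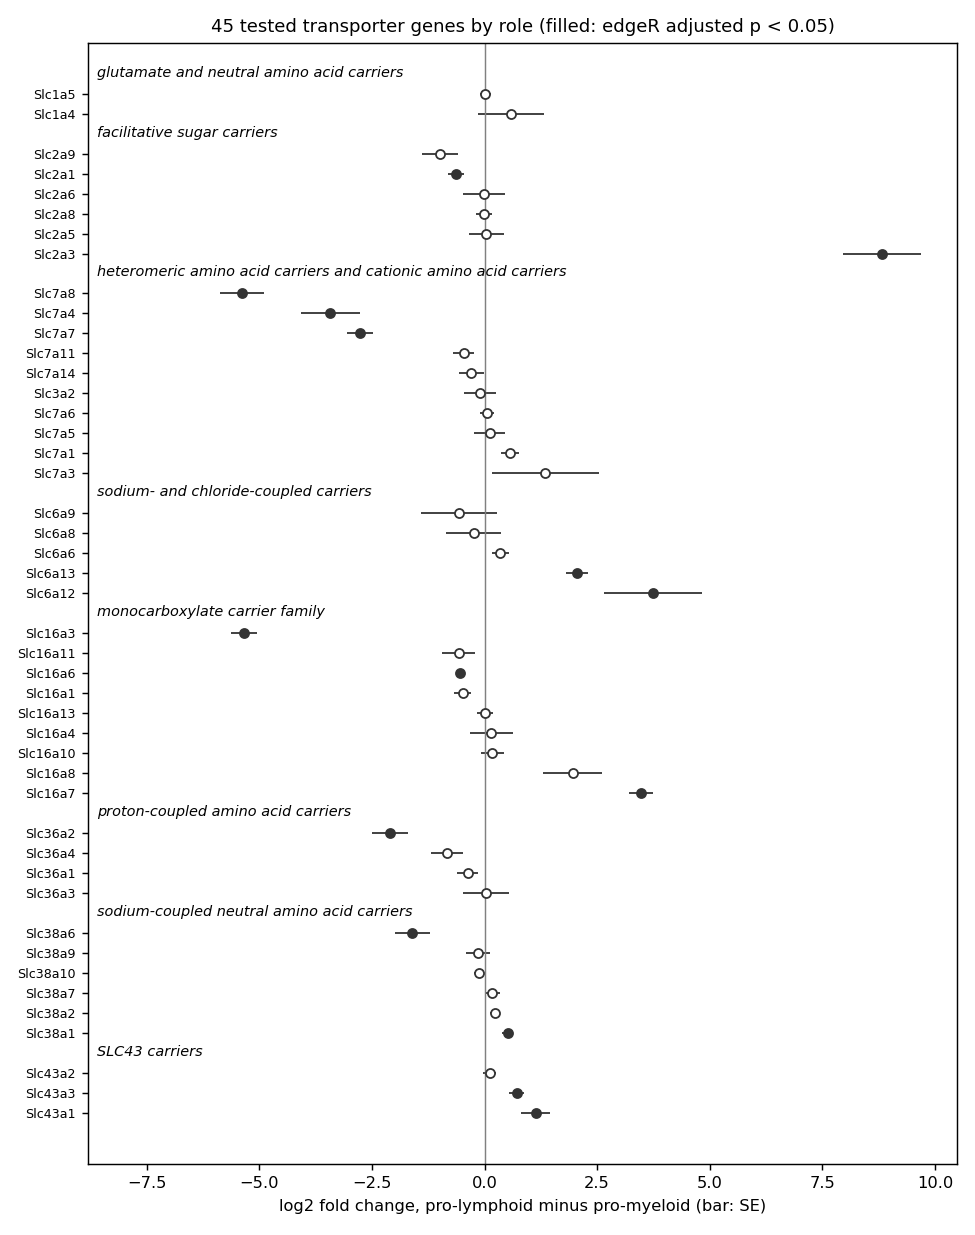
Log2 fold change (x axis, pro-lymphoid minus pro-myeloid cells) of the 45 tested carrier genes (y axis, grouped by role), each point being 1 gene with a bar of 1 SE, filled where the edgeR adjusted p was under 0.05. Slc2a3 lies farthest to the right at 8.82, Slc7a8 and Slc16a3 farthest to the left at -5.39 and -5.34, and most others lie near 0.

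Among the sugar carriers, Slc2a3 rose in pro-lymphoid cells and Slc2a1 fell. Slc2a1 encodes GLUT1, the widespread carrier of basal glucose uptake, and Slc2a3 encodes GLUT3, a glucose carrier of high affinity known from neurons and leukocytes. Of 6 tested members of the SLC2 family 1 rose, 1 fell and 4 did not pass (33.3% called, against 37.4% of all genes tested). Slc2a3 had 7.13, 31.1 and 23.2 CPM in pro-lymphoid replicates 1, 5 and 6, against 0.0781, 0 and 0.0434 CPM in pro-myeloid replicates 2, 3 and 4 (mm10, chromosome 6, 122727809 to 122742745). The pro-lymphoid values were all above the pro-myeloid ones, and replicate 1 was the lowest of them. Summed over libraries these are 2447 against 5 counts, a ratio of 490.4 with an exact 95% counting interval of 210 to 1512 (fitted log2 fold change 8.82 ± 0.87, SE; edgeR adjusted p = 0.000562; 9.51 without pro-myeloid replicate 2). Such intervals cover counting error only, as reads are not independent molecules. Slc2a1 had 43.6, 39.6 and 43.7 CPM in the pro-lymphoid and 83.97, 60.9 and 53.1 CPM in the pro-myeloid libraries (chromosome 4, 119108745 to 119137329). It fell by 0.64 (log2), with an SE of 0.18 (edgeR adjusted p = 0.0290), and the groups did not overlap. This call was lost without pro-lymphoid replicate 1, 5 or 6 (adjusted p of 0.0638, 0.0931 and 0.0825).

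Per length of exon, Slc2a1 remained the more abundant of the pair in each library. Its level was 16.4 ± 0.911 RPKM (TMM-scaled CPM per kilobase of exon) in pro-lymphoid and 25.7 ± 6.24 RPKM in pro-myeloid cells (SD, n = 3), and that of Slc2a3 was 5.17 ± 3.08 and 0.0102 ± 0.00989 RPKM. Slc2a3 thus made up 9.60%, 33.8% and 25.6% of the summed level of the class I sugar carriers (Slc2a1 to Slc2a4) in pro-lymphoid replicates 1, 5 and 6, against 0.0604%, 0% and 0.0530% in pro-myeloid replicates 2, 3 and 4. The log2 ratio of Slc2a3 to Slc2a1 differed by 9.31 between the cultures and did not overlap (two-sided exact permutation p = 0.1, the smallest that 3 against 3 libraries allow; 0.2 adjusted over the 4 ratios computed). Summed over class I, the level was 21.6 ± 2.48 RPKM in pro-lymphoid and 25.7 ± 6.26 RPKM in pro-myeloid cells (SD, n = 3), a difference within the spread. Slc2a2 and Slc2a4, the GLUT2 and GLUT4 genes of liver and of muscle and fat, had 0 and 10 counts over all libraries.

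The other sugar carriers did not pass. Slc2a6 encodes GLUT6, a carrier of lysosomal membranes in macrophages, and stood at 78.2, 53.9 and 76.2 CPM in pro-lymphoid against 129, 46.1 and 35.7 CPM in pro-myeloid libraries. Pro-myeloid replicate 2 was the highest of all libraries, and without it Slc2a6 was called higher in pro-lymphoid cells (log2 fold change 0.76, adjusted p = 0.0268) where the value with all libraries was -0.02. Slc2a9, a urate carrier gene, stood at 4.88, 3.92 and 2.49 against 4.04, 9.74 and 8.61 CPM (log2 fold change -0.99 ± 0.41, edgeR adjusted p = 0.0969). The gene was called lower without pro-myeloid replicate 2 (-1.29, adjusted p = 0.0206). Slc2a8 (15.1 against 15.3 CPM) and the fructose carrier gene Slc2a5 (1.25 against 1.22 CPM) had mean levels with log2 fold changes of -0.02 and 0.04.

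The monocarboxylate family also held a member that rose beside one that fell. Slc16a3 encodes MCT4, a carrier known for lactate export from glycolytic cells, and Slc16a7 encodes MCT2, a carrier of high affinity for pyruvate and lactate. Slc16a3 had 0.841, 0.942 and 0.512 CPM in pro-lymphoid and 34.98, 30.5 and 27.7 CPM in pro-myeloid libraries (chromosome 11, 120948484 to 120959000), a log2 fold change of -5.34 ± 0.28 (SE; edgeR adjusted p = 5.63e-05). Slc16a7 had 10.3, 9.599 and 8.24 CPM in pro-lymphoid and 0.729, 1.01 and 0.780 CPM in pro-myeloid libraries (chromosome 10, 125227485 to 125328535), a log2 fold change of 3.48 ± 0.27 (edgeR adjusted p = 0.000197). In both genes the libraries of a culture lay close together and far from those of the other, and both calls held under all 14 alternatives. The libraries low in Slc16a3 were also those low in neutrophil markers, whose part was not tested. Of the 9 tested members of the family 1 rose, 2 fell and 6 did not pass (33.3% called, against 37.4% of all genes tested).

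Slc16a1, the MCT1 gene, was the most abundant of the lactate and pyruvate carriers in both cultures. It stood at 77.2, 85.97 and 112 CPM in pro-lymphoid and 149, 106 and 131 CPM in pro-myeloid libraries, which overlap between pro-lymphoid replicate 6 and pro-myeloid replicate 3 (log2 fold change -0.49 ± 0.19, edgeR adjusted p = 0.0764; 0.0497 with DESeq2). Per length, Slc16a3 made up 1.22 ± 0.468% of the summed level of Slc16a1, Slc16a3, Slc16a7 and Slc16a8 in pro-lymphoid and 29.2 ± 3.14% in pro-myeloid cells (SD, n = 3). Slc16a7 made up 15.8 ± 3.74% and 0.857 ± 0.263%, and Slc16a1 82.0 ± 4.48% and 69.8 ± 3.47%. Their summed level was 25.1 ± 3.53 RPKM in pro-lymphoid and 41.5 ± 5.77 RPKM in pro-myeloid cells, without overlap. The log2 ratio of Slc16a3 to Slc16a1 was -6.13 ± 0.72 in pro-lymphoid against -1.26 ± 0.23 in pro-myeloid cells (SD, n = 3), a difference of -4.87 (exact permutation p = 0.1; adjusted 0.2). Slc16a8, the MCT3 gene, was low and did not overlap, at 0.570, 0.392 and 0.396 against 0.156, 0.178 and 0.0217 CPM (log2 fold change 1.95 ± 0.66, edgeR adjusted p = 0.0544). It passed with upper-quartile scaling and with limma-voom (adjusted p = 0.0472 and 0.0441).

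**Figure D2:**
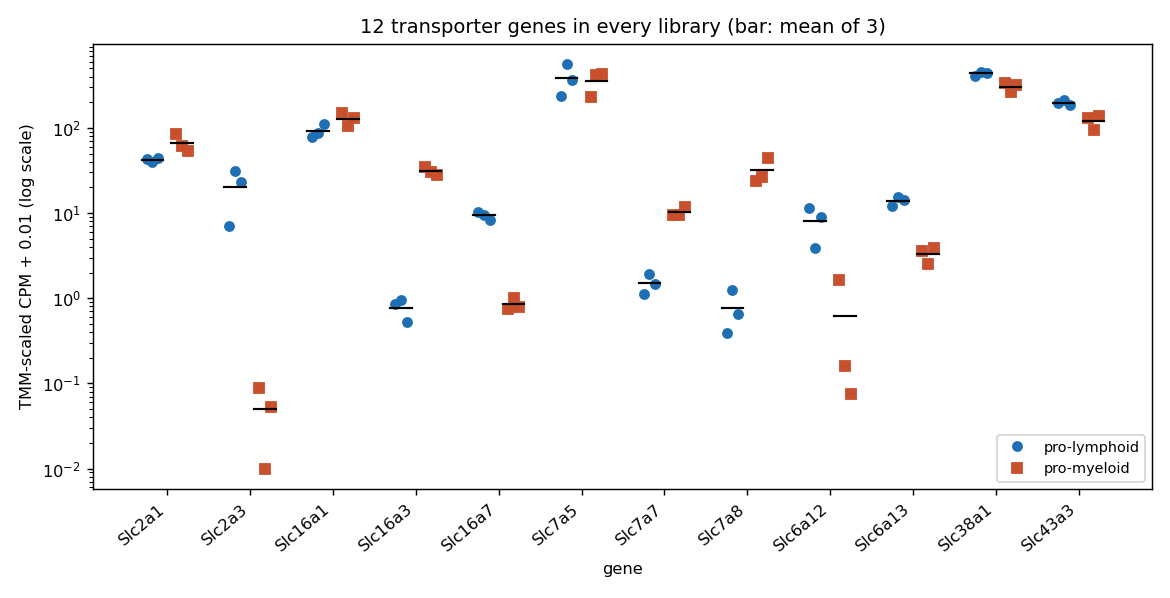
Level of 12 carrier genes (x axis) as TMM-scaled CPM, with 0.01 added for a log-scaled y axis, with a circle for each pro-lymphoid and a square for each pro-myeloid library and a line marking the group mean. Slc2a3 and Slc16a7 lie higher and Slc16a3, Slc7a7 and Slc7a8 lower in pro-lymphoid cells, while Slc7a5 and Slc16a1 overlap.

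The remaining members of SLC16 include carriers of other substrates. Slc16a10 encodes TAT1, a carrier of aromatic amino acids, and did not pass, at 155, 95.3 and 129.8 CPM in pro-lymphoid against 149, 107 and 80.99 CPM in pro-myeloid libraries. Slc16a6, the MCT7 gene, fell by 0.54 (log2), with an SE of 0.10 (edgeR adjusted p = 0.00747), at 45.8, 42.6 and 45.4 against 62.5, 69.05 and 62.4 CPM without overlap. Its exons overlap those of LOC100503496 over up to 1598 bases and those of Arsg over up to 48 bases, both on the opposite strand. Counting ignored strand, so the level of Slc16a6 is uncertain. LOC100503496 itself had 5 against 9 counts and Arsg 210 against 429. Slc16a4, Slc16a11 and Slc16a13 had log2 fold changes of 0.15, -0.57 and 0.00336 and did not pass. Slc16a11 and Slc16a13 lie 377 bases apart on chromosome 11 on opposite strands, and their mean levels were 0.821 and 15.8 CPM in pro-lymphoid against 1.22 and 15.8 CPM in pro-myeloid cells.

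**Figure D3:**
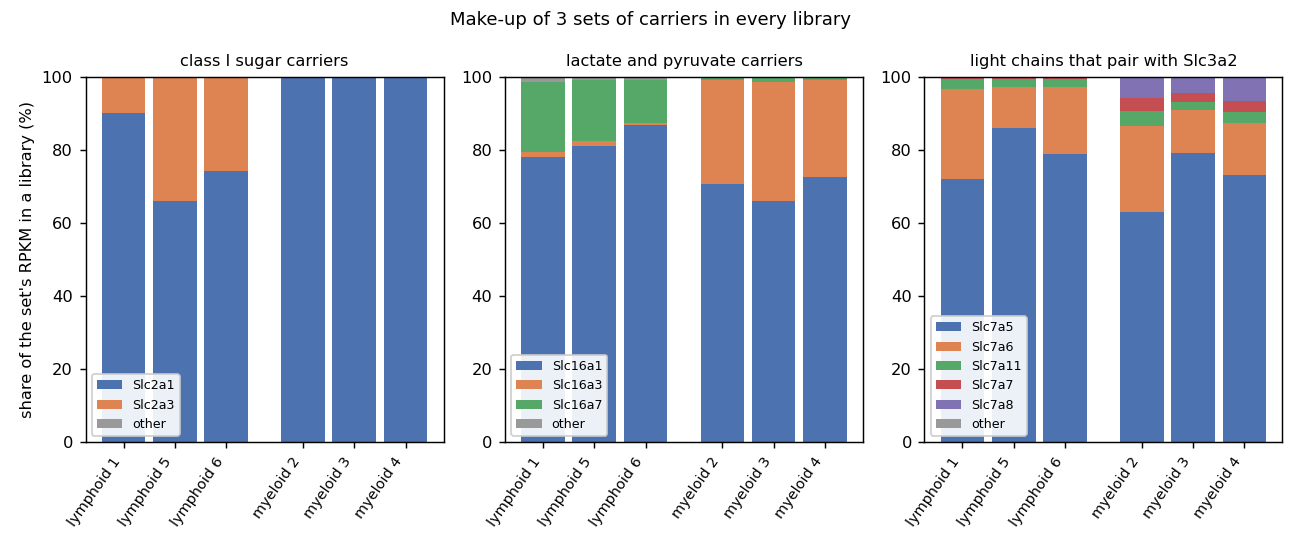
Share of the summed RPKM of a set (y axis, percent) taken by each carrier gene in each library (x axis), for class I sugar carriers, lactate and pyruvate carriers, and the light chains that pair with Slc3a2. Slc2a3 and Slc16a7 fill a visible part of the bars in the pro-lymphoid libraries, and Slc16a3, Slc7a7 and Slc7a8 do so in the pro-myeloid ones.

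The heavy chain and its most abundant light chain were not called between the cultures, whereas the light chain genes Slc7a7 and Slc7a8 fell in pro-lymphoid cells. Slc3a2, the heavy chain gene of CD98, stood at 156, 339 and 230.3 CPM in pro-lymphoid and 156, 300.3 and 324 CPM in pro-myeloid libraries (log2 fold change -0.11 ± 0.35, edgeR adjusted p = 0.834). Slc7a5 encodes LAT1, which imports leucine and other large neutral amino acids, and stood at 239, 559.9 and 364 against 229, 419.9 and 426 CPM (log2 fold change 0.11 ± 0.35, edgeR adjusted p = 0.823). Both genes were lowest in pro-lymphoid replicate 1 and pro-myeloid replicate 2 and highest in pro-lymphoid replicate 5. Of 10 tested members of SLC3 and SLC7 0 rose and 3 fell with edgeR (30% called, against 37.4% of all genes tested). At an unadjusted p under 0.05, and also with DESeq2 or limma-voom, 1 was higher, which was Slc7a1.

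Slc7a8 encodes LAT2, a carrier of neutral amino acids, and fell the most of the family. It had 0.380, 1.23 and 0.652 CPM in pro-lymphoid and 23.9, 26.5 and 44.5 CPM in pro-myeloid libraries (chromosome 14, 54722215 to 54781886), a log2 fold change of -5.39 ± 0.49 (SE; edgeR adjusted p = 0.000394). Slc7a7 encodes y+LAT1, which exports arginine and lysine in exchange for neutral amino acids and is expressed in macrophages. It had 1.11, 1.94 and 1.44 CPM in pro-lymphoid and 9.43, 9.39 and 11.8 CPM in pro-myeloid libraries (chromosome 14, 54369442 to 54417702), a log2 fold change of -2.77 ± 0.29 (edgeR adjusted p = 0.000693). The groups lay apart in both genes, and both calls held under all 14 alternatives. Both genes were lower in the libraries with the lower sum of neutrophil markers, whose part in the result was not tested. Exons of Slc7a7 and of Oxa1l (11997 against 10679 counts) overlap by up to 228 bases on opposite strands, so reads of that stretch cannot be told apart. Slc7a4, a relative of the cationic amino acid carriers, stood at 0.109, 0.445 and 0.256 against 4.92, 2.19 and 1.67 CPM (log2 fold change -3.42 ± 0.65, edgeR adjusted p = 0.00659). Its log2 fold change was -2.82 without pro-myeloid replicate 2.

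The remaining light chains of the heavy chain were not called. Slc7a6 encodes y+LAT2 and stood at 87.4, 77.9 and 88.7 CPM in pro-lymphoid against 90.7, 65.2 and 87.9 CPM in pro-myeloid libraries (log2 fold change 0.06 ± 0.15). Slc7a11 encodes xCT, which imports cystine in exchange for glutamate, and stood at 22.8, 36.6 and 26.7 against 38.6, 30.6 and 49.1 CPM (log2 fold change -0.46 ± 0.23, edgeR adjusted p = 0.165). Per length, Slc7a5 made up 79.0 ± 7.0% of the summed level of the light chains of Slc3a2 (Slc7a5, Slc7a6, Slc7a7, Slc7a8, Slc7a10 and Slc7a11) in pro-lymphoid and 71.8 ± 8.24% in pro-myeloid cells (SD, n = 3). Slc7a8 made up 0.129 ± 0.0328% and 5.58 ± 1.15%, and Slc7a7 0.442 ± 0.0265% and 2.99 ± 0.593%. The summed light chain level was 1.79, 1.62 and 1.68 times that of Slc3a2 in pro-lymphoid replicates 1, 5 and 6, against 1.96, 1.48 and 1.51 times in pro-myeloid replicates 2, 3 and 4, ranges that overlap. The log2 ratio of Slc7a11 to Slc7a5 was -5.09 ± 0.28 in pro-lymphoid and -4.55 ± 0.61 in pro-myeloid cells and overlapped (exact permutation p = 0.3; adjusted 0.3).

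Among the carriers of arginine and lysine, Slc7a1 encodes CAT1, the general arginine importer. It stood at 206, 287 and 253 CPM in pro-lymphoid and 148, 143 and 211 CPM in pro-myeloid libraries (log2 fold change 0.57 ± 0.19, edgeR adjusted p = 0.0552). Pro-lymphoid replicate 1 and pro-myeloid replicate 4 lay next to each other, and the gene passed as higher under 6 of 14 alternatives, DESeq2 and limma-voom among them (adjusted p = 0.0217 and 0.0477). Slc7a2 encodes CAT2, the inducible arginine carrier of macrophages. It was removed by the filter on low counts, with 0 counts in all pro-lymphoid libraries against 44, 8 and 45 counts in pro-myeloid replicates 2, 3 and 4. The level in pro-lymphoid cells was lower by at least 32-fold (floor of 3 counts over the group), and fitted without the filter it passed (edgeR adjusted p = 0.00589). Slc7a3, the CAT3 gene, stood at 0.217, 6.75 and 1.26 against 0.234, 0.740 and 2.21 CPM without a call (edgeR adjusted p = 0.406), and Slc7a14 at a mean of 3.53 against 4.32 CPM.

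Carriers of glutamine and small neutral amino acids were among the highest members, and few of them were called. Slc1a5 encodes ASCT2, a sodium-dependent exchanger known for glutamine uptake, and stood at 188, 247 and 212 CPM in pro-lymphoid and 204, 210.0 and 225 CPM in pro-myeloid libraries (log2 fold change 0.02 ± 0.13, SE; edgeR adjusted p = 0.924). Slc1a4 encodes ASCT1, a carrier of serine, alanine and cysteine, and stood at 8.19, 34.9 and 18.7 against 3.099, 17.97 and 20.1 CPM (log2 fold change 0.58 ± 0.73, edgeR adjusted p = 0.557; -0.03 without pro-lymphoid replicate 5). Neither passed with edgeR, DESeq2 or limma-voom, or at an unadjusted p under 0.05. Of the glutamate carriers of SLC1, Slc1a1, Slc1a2 and Slc1a3 had 1 count each in pro-lymphoid against 0, 2 and 5 counts in pro-myeloid cells, and Slc1a6 and Slc1a7 had 0 in all libraries.

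In the SLC38 family, Slc38a1 rose and Slc38a6 fell, while 4 tested members did not pass (33.3% called, against 37.4% of all genes tested). Slc38a1 encodes SNAT1, a glutamine carrier of the plasma membrane, and stood at 409.6, 453 and 445 CPM in pro-lymphoid and 335, 263 and 318 CPM in pro-myeloid libraries. The groups did not overlap, the log2 fold change was 0.51 ± 0.13 (SE; edgeR adjusted p = 0.0199), and the call was lost without pro-lymphoid replicate 5 or 6 or pro-myeloid replicate 4 (adjusted p of 0.0692, 0.0746 and 0.0576). Slc38a2 encodes SNAT2, a carrier induced by amino acid starvation, and its groups also did not overlap, at 339.6, 295 and 291 against 252, 263 and 275 CPM (log2 fold change 0.23 ± 0.11, edgeR adjusted p = 0.153). The genes lie 44478 bases apart on chromosome 15. Their log2 ratio per length, Slc38a2 over Slc38a1, was 0.36 ± 0.20 in pro-lymphoid and 0.65 ± 0.21 in pro-myeloid cells and overlapped (exact permutation p = 0.2; adjusted 0.267).

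Slc38a6 stood at 14.2, 7.09 and 6.07 CPM in pro-lymphoid and 21.96, 38.1 and 22.9 CPM in pro-myeloid libraries (log2 fold change -1.60 ± 0.38, edgeR adjusted p = 0.0158). Its groups did not overlap, and its call was lost without pro-lymphoid replicate 5 or 6 (adjusted p of 0.0549 and 0.0564). Slc38a7 and Slc38a9 act at the lysosome, the first in glutamine release and the other as the arginine sensor of the mTORC1 pathway. Slc38a7 stood at 39.3, 35.8 and 26.2 against 30.5, 31.4 and 27.9 CPM and Slc38a9 at 23.5, 20.5 and 16.1 against 15.96, 29.7 and 20.7 CPM, with log2 fold changes of 0.17 and -0.14. Slc38a10 stood at 225, 232 and 246 against 285, 244 and 234 CPM (log2 fold change -0.12 ± 0.12). Summed per length over the family, the level was 177 ± 5.16 RPKM in pro-lymphoid and 161 ± 3.65 RPKM in pro-myeloid cells (SD, n = 3).

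The sodium- and chloride-coupled family SLC6 is best known for clearing neurotransmitters, and 17 of its genes were counted. Of 5 tested members 2 rose and 0 fell with edgeR (40% called, against 37.4% of all genes tested). The counts were the same with DESeq2, with limma-voom and at an unadjusted p under 0.05. Slc6a13 encodes GAT2, a carrier of GABA and taurine, and had 11.9, 15.5 and 14.1 CPM in pro-lymphoid and 3.57, 2.52 and 3.92 CPM in pro-myeloid libraries (chromosome 6, 121300296 to 121337718). The groups lay apart, with a log2 fold change of 2.05 ± 0.25 (SE; edgeR adjusted p = 0.00116), a call held under all 14 alternatives. Slc6a12 encodes BGT1, a carrier of betaine and GABA, and is its neighbour on the same strand, 8978 bases further on. It had 11.6, 3.84 and 8.96 CPM in pro-lymphoid and 1.61, 0.148 and 0.0650 CPM in pro-myeloid libraries (log2 fold change 3.74 ± 1.08, edgeR adjusted p = 0.0325). Pro-myeloid replicate 2 was the highest of its group, and without it the log2 fold change was 6.27 (adjusted p = 0.00117). The call of Slc6a12 was lost without pro-lymphoid replicate 1 or 6 or pro-myeloid replicate 3 or 4 (adjusted p of 0.0737, 0.0842, 0.0850 and 0.0647).

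Slc6a6 encodes the taurine carrier and was the highest member of SLC6 in both cultures. It stood at 242, 183 and 209.8 CPM in pro-lymphoid and 212, 144 and 140.4 CPM in pro-myeloid libraries (log2 fold change 0.35 ± 0.19, edgeR adjusted p = 0.191), and it was called higher without pro-myeloid replicate 2 (0.57, adjusted p = 0.0227). Slc6a9, the glycine carrier gene GLYT1, stood at 1.25, 13.3 and 3.93 against 3.39, 9.95 and 14.1 CPM, and Slc6a8, the creatine carrier gene, at 0.732, 2.48 and 1.37 against 3.23, 1.096 and 1.08 CPM, neither with a call. Exons of Slc6a9 overlap those of Ccdc24 on the opposite strand by up to 46 bases. The dopamine, serotonin and noradrenaline carrier genes Slc6a3, Slc6a4 and Slc6a2 had 1, 7 and 2 counts over all libraries.

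Of 3 tested members of SLC43 2 rose and 0 fell (66.7% called, against 37.4% of all genes tested), a share that rests on 3 genes. Both genes that rose lie on chromosome 2. Slc43a3 encodes ENBT1, a carrier of purine nucleobases, and stood at 195, 214 and 186 CPM in pro-lymphoid and 131, 95.8 and 137 CPM in pro-myeloid libraries (84936646 to 84958509). Its groups did not overlap, with a log2 fold change of 0.71 ± 0.16 (SE; edgeR adjusted p = 0.0123). Slc43a1 encodes LAT3, a carrier of leucine and other neutral amino acids that needs no heavy chain, and stood at 14.4, 19.04 and 22.8 against 7.37, 5.68 and 12.5 CPM (84839408 to 84863586; log2 fold change 1.13 ± 0.33, edgeR adjusted p = 0.0327). The call of Slc43a1 was lost without pro-lymphoid replicate 5 or 6 or pro-myeloid replicate 2 or 3 (adjusted p of 0.0774, 0.113, 0.0637 and 0.0778). Slc43a2, the LAT4 gene, did not pass, at 64.4, 75.7 and 59.5 against 62.5, 68.6 and 52.8 CPM.

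In the proton-coupled family SLC36, Slc36a1 encodes PAT1, a carrier of small amino acids found at lysosomes. It stood at 69.8, 38.8 and 46.4 CPM in pro-lymphoid and 63.96, 80.2 and 56.8 CPM in pro-myeloid libraries (log2 fold change -0.37 ± 0.24, edgeR adjusted p = 0.256), and it was called lower without pro-lymphoid replicate 1 (-0.65, adjusted p = 0.0446). Slc36a2, the PAT2 gene, was low and fell, at 0.461, 0.288 and 0.256 against 1.82, 1.36 and 1.13 CPM (log2 fold change -2.10 ± 0.41, edgeR adjusted p = 0.00729). Slc36a4 did not overlap but did not pass, at 3.85, 1.78 and 3.82 against 6.09, 4.47 and 6.31 CPM (edgeR adjusted p = 0.108). Slc36a1, Slc36a2 and Slc36a3 are neighbours on chromosome 11, and Slc36a3 stood at a mean of 0.258 against 0.255 CPM.

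The filter on low counts removed 40 of the 85 members. Of these 18 had 0 counts in all libraries, among them Slc6a14, Slc6a19, Slc7a9, Slc7a10 and Slc38a5, 18 had 1 to 10 counts over all libraries, and 4 had more. Besides Slc7a2 the last include Slc2a7 (7 against 13 counts) and Slc16a14 (14 against 3 counts). Without the filter 22 of the 40 could be fitted, and of these only Slc7a2 passed. For a gene at 0, the counting limit is 3 counts, or 0.0650 to 0.0888 CPM in a library.

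Ordered by level per length, Slc7a5 stood first, at 110.3 ± 46.05 RPKM in pro-lymphoid and 102 ± 31.97 RPKM in pro-myeloid cells (SD, n = 3), then Slc3a2 (81.7 ± 31.01 and 87.98 ± 30.8 RPKM) and Slc1a5 (78.3 ± 10.8 and 77.3 ± 4.004 RPKM). The group means of these 3 neighbours in the order lay within their spread between libraries. Within each library, though, Slc7a5 stood above Slc3a2. Slc1a5 stood above Slc3a2 in pro-lymphoid replicate 1 (68.1 against 52.8 RPKM) and below it in pro-lymphoid replicate 5 (89.7 against 114 RPKM). Slc43a3 had rank 4 in pro-lymphoid and rank 6 in pro-myeloid cells (76.3 ± 5.51 and 46.6 ± 8.59 RPKM), and Slc38a1 rank 6 and rank 7 (51.9 ± 2.73 and 36.4 ± 4.46 RPKM). Among the 6 highest members of pro-lymphoid cells, Slc43a3 and Slc38a1 were called between the cultures. Among the 6 highest of pro-myeloid cells only Slc43a3 was called, with Slc38a1 next at rank 7.

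Several amino acid carriers varied between libraries of 1 culture in the same order, a pattern chosen after its values were seen; of these, Slc7a8 alone was also called between the cultures. Slc1a4, Slc1a5, Slc3a2, Slc7a3, Slc7a5, Slc7a8 and Slc6a9 were lowest in pro-lymphoid replicate 1, highest in pro-lymphoid replicate 5 and lowest in pro-myeloid replicate 2. That order held for 7 of 45 tested members (15.6%) and for 11.97% of all genes tested, so the count alone is near the background. The size of the spread varied among them. The highest library stood above the lowest by 31.1 times for Slc7a3, 10.7 times for Slc6a9 and 4.27 times for Slc1a4 in pro-lymphoid cells, and by 9.43, 4.16 and 6.49 times in pro-myeloid cells. For Slc3a2 it was 2.17 and 2.08 times, for Slc7a5 2.34 and 1.86 times, and for Slc1a5 1.32 and 1.10 times.

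The same order of libraries held for 12 of the 83 tested companion genes described below (14.5%), again near the 11.97% of all genes tested. They were Asns, Cth, Bcat1, Ldhb, Glul, Gss, Lamtor1, Lamtor2, Kptn, Itfg2, Mpc1 and Slc37a3. Asns, which encodes asparagine synthetase and is induced by amino acid shortage, stood at 61.01, 198 and 104 CPM in pro-lymphoid and 67.2, 205 and 242 CPM in pro-myeloid libraries, and Cth, which encodes the cysteine-forming cystathionine gamma-lyase, at 2.22, 18.4 and 3.75 and 0.469, 3.85 and 12.2 CPM. Sesn2, the leucine sensor gene of mTORC1, did not share that order in pro-lymphoid cells, at 24.1, 39.6 and 19.9 against 22.2, 49.6 and 45.8 CPM. Asns, Cth and Sesn2 were not called between the cultures. Library totals share this order in part. Among pro-lymphoid libraries replicate 1 had the lowest total (34972488 counts) but replicate 6 the highest (43304095). Among pro-myeloid libraries replicate 3 had the lowest (35162603). A cause of the spread was not tested.

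**Figure D4:**
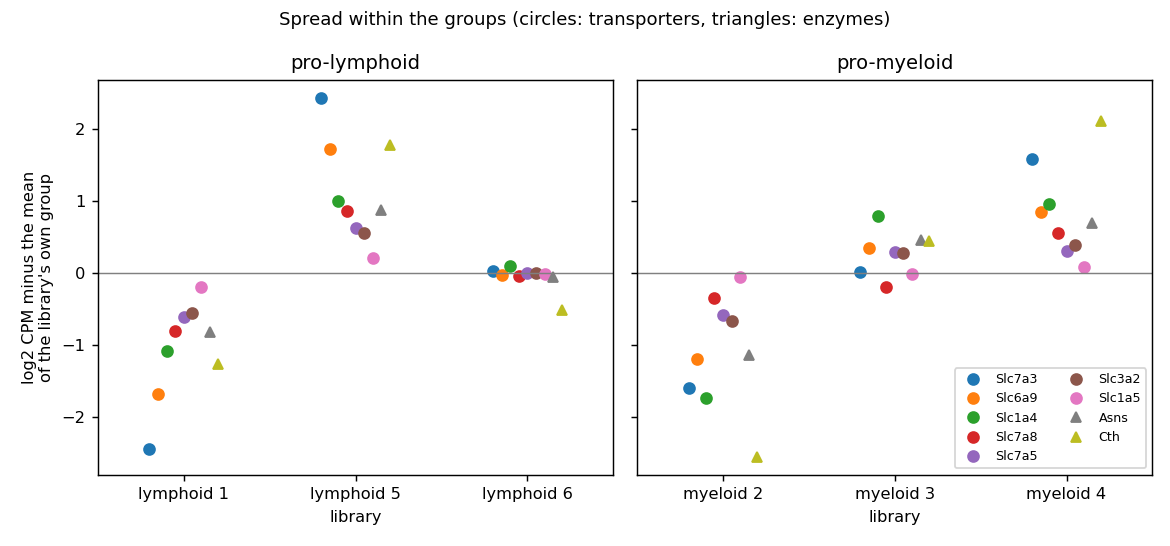
Log2 CPM minus the mean of the library's own group (y axis) for 7 carrier genes (circles) and the enzyme genes Asns and Cth (triangles) in each library (x axis), pro-lymphoid on the left and pro-myeloid on the right. All 9 genes lie below 0 in pro-lymphoid replicate 1 and pro-myeloid replicate 2 and above 0 in pro-lymphoid replicate 5 and pro-myeloid replicate 4.

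Genes that work with these carriers were examined as 4 lists, in which 15 of 83 tested genes rose and 17 fell (38.6%), a share near the 37.4% of all genes tested. Without pro-lymphoid replicate 6, 6 of them rose, where genes called higher over all genes also went from 2091 to 1158. Of 8 tested partners and trafficking regulators 1 rose and 3 fell (50%). Emb encodes embigin, a partner of monocarboxylate carriers, and stood at 251, 209 and 145 CPM in pro-lymphoid and 1081, 1444 and 1161 CPM in pro-myeloid libraries (log2 fold change -2.61 ± 0.24, SE; edgeR adjusted p = 0.000394). Bsg, the basigin gene, stood at 283 ± 23.4 and 298 ± 12.7 CPM (SD, n = 3) without a call. Embigin is known as the preferred partner of MCT2 and basigin of MCT1 and MCT4 in rat, and Slc16a7 was higher where Emb was lower. The arrestin-domain genes Txnip and Arrdc4, whose products draw glucose carriers from the surface, went apart. Txnip rose, at 109.6, 103 and 213 against 74.5, 76.8 and 63.6 CPM (edgeR adjusted p = 0.0318, not called once any 1 pro-myeloid replicate was left out, with adjusted p of 0.0511, 0.0695 and 0.102). Arrdc4 had 0 against 479 counts and was at least 159-fold lower (floor of 3 counts over the group; edgeR adjusted p = 0.000470), and the kinase gene Sgk1 fell by 3.02 on the log2 scale.

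Of 23 tested enzymes that use the imported substrates 6 rose and 4 fell (43.5%, against 37.4% of all genes tested). Hk1, the hexokinase that first phosphorylates glucose in most tissues, stood at 36.9, 38.8 and 39.96 CPM in pro-lymphoid and 202, 199 and 187 CPM in pro-myeloid libraries (log2 fold change -2.35 ± 0.10, SE; edgeR adjusted p = 2.31e-05). Hk2 (116 ± 21.1 and 126 ± 8.64 CPM) and the lactate dehydrogenase gene Ldha (924 ± 164 and 975 ± 144 CPM; SD, n = 3) were not called. The subunit genes of glutamate-cysteine ligase, which uses cysteine, formed in part from the cystine brought in by xCT, for glutathione, went apart. Gclc, the catalytic subunit, stood at 88.5 ± 5.79 and 44.97 ± 7.12 CPM (log2 fold change 0.98 ± 0.14), and Gclm, the modifier subunit, at 40.1 ± 3.52 and 99.5 ± 6.898 CPM (-1.31 ± 0.12). Got1, the cytosolic aspartate aminotransferase gene, rose with a log2 fold change of 1.52 ± 0.11 (edgeR adjusted p = 0.000162).

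In the list of amino acid sensing by mTORC1, 4 of 34 tested genes rose and 6 fell (29.4%, against 37.4% of all genes tested). Rragb, a Rag GTPase gene, stood at 7.62, 9.39 and 8.49 CPM in pro-lymphoid and 2.24, 1.07 and 1.496 CPM in pro-myeloid libraries (log2 fold change 2.41 ± 0.33, edgeR adjusted p = 0.00186). Fnip1, which encodes a partner of folliculin, fell by 1.36 on the log2 scale, with an SE of 0.14 (edgeR adjusted p = 0.000593), and Lamtor4, a Ragulator subunit gene, by 0.74, with an SE of 0.16. Sesn1 rose with a log2 fold change of 0.63 ± 0.16, a call lost without pro-lymphoid replicate 1 or 6 (adjusted p of 0.0540 and 0.0646). Among neighbouring solute carriers, 4 of 18 tested genes rose and 4 fell (44.4%). Slc32a1, the vesicular GABA and glycine carrier gene, stood at 0.353, 0.0523 and 0.163 CPM in pro-lymphoid and 14.04, 3.61 and 4.31 CPM in pro-myeloid libraries (log2 fold change -5.26 ± 0.83, edgeR adjusted p = 0.00323; -6.02 without pro-lymphoid replicate 1 and -4.38 without pro-myeloid replicate 2). Mpc1, a subunit gene of the mitochondrial pyruvate carrier, fell by 0.81 on the log2 scale, with an SE of 0.13. Slc25a13, a mitochondrial aspartate-glutamate carrier gene, rose with a log2 fold change of 1.12 ± 0.20, and Slc37a1, a sugar-phosphate carrier gene, with one of 1.12 ± 0.20.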

How the data were processed

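RNA from 6 libraries was sequenced, 3 of each culture. The deposited table holds raw counts per gene, which the authors made with featureCounts 1.5.1, per the file headers, together with exon length and coordinates. The submitters' processing notes also name Trimmomatic, Bowtie, TopHat, DESeq2 and mm10. Counting ignored strand, per the file headers, so overlapping antisense genes cannot be told apart. Library columns were matched to replicates by the numbers in their names. Here, counts were scaled by TMM, filtered with filterByExpr and tested across all genes with edgeR 4.0.16 (quasi-likelihood test, Benjamini-Hochberg adjustment, R 4.3.3), and the SE was derived from the F statistic. The steps were tested on simulated data. Levels were CPM and, per length, RPKM computed from the counts, and log2 ratios used a pseudocount of 0.5 counts. Alternatives were other scalings, other filters, DESeq2 1.42.0, limma-voom (limma 3.58.1), a minimum fold and leaving out each library. The members and lists were chosen with earlier results of these data known. Values in every library are given for tested members whose higher group averaged 20 CPM or more and for up to 3 called members per role with the largest change, and up to 4 genes per companion list are named by smallest adjusted p. Asns, Cth, Sesn2, Bsg, Hk2, Hk3, Ldha and Ldhb, and members outside the rule, were chosen after their values were seen. The values of 1 member are not reported here.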

Additional observations from a re-analysis of the deposited data

How the results depend on the processing

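No paired analysis was made, because the labels do not say which libraries, if any, share a source. The replicate numbers run on over both cultures and so do not show it either. Leaving out each library in turn gave 4 to 8 transporters called higher and 7 to 9 called lower, against 7 and 8 with all libraries. Over all genes it gave 1158 to 2417 higher and 1735 to 2807 lower, against 2091 and 2574. For the companion genes it gave 6 to 19 higher and 12 to 15 lower, against 15 and 17, and with a minimum absolute log2 fold change of 1, 5 were higher. The share of calls that were lower, over all genes, was 55.18% with TMM and 49.78% with upper-quartile scaling. The cause of these moves was not tested, apart from the minimum fold, which by construction removes small changes. The 15 called transporters kept direction and call in 190 of 210 alternative values and direction in all, and 10 kept the call under every alternative other than the minimum fold. Of the 30 others, 12 values passed the threshold in the same direction, and Slc2a6 reversed (0.76 without pro-myeloid replicate 2; leaving out single libraries gave -0.35 to 0.76). Leaving out libraries, the ratio differences ranged from -5.08 to -4.45 for Slc16a3 over Slc16a1, 8.60 to 9.96 for Slc2a3 over Slc2a1, -0.41 to -0.19 for Slc38a2 over Slc38a1 and -0.86 to -0.25 for Slc7a11 over Slc7a5. Depth limits members under 3 counts in a library.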
